A study of Mus musculus with 16 samples.

Results

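The transcripts described are 8 costimulation genes of naive mouse T cells, chosen by name from the 24421 genes of the count table: the TNF receptor family genes Tnfrsf9, Tnfrsf4, Tnfrsf18, Tnfrsf1b and Cd27, the adaptor gene Traf1, and the CD28 family genes Cd28 and Icos. RNA was sequenced from 16 samples of naive T cells sorted by antibody from lymph nodes of C57BL/6 mice, with no treatment named in the labels. All were CD25-negative, CD62L high and CD44 low, and the 4 groups were CD8+CD5hi, CD8+CD5lo, CD4+CD5hi and CD4+CD5lo cells, with 4 biological replicates each. CD5hi cells were the third of the naive gate with the most CD5 on the surface and CD5lo cells the third with the least; CD5 restrains signalling from the T cell receptor, and its surface level is widely used as a readout of how strongly a naive cell responds to self ligands. The comparisons therefore ask which costimulation transcripts differ with surface CD5 within each lineage, and between lineages in the CD5 gate of the same name. They also ask whether the CD5 difference itself differs between lineages. The labels give no age or sex, and do not say whether replicates came from separate or pooled animals, so p-values measure only the spread between these samples.

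A naive T cell needs a second signal beside its antigen receptor to respond fully. CD28, which binds CD80 and CD86 on antigen-presenting cells, gives that signal from the start, and its relative ICOS is induced after activation and helps T cells that assist B cells. The TNF receptor family members 4-1BB (Tnfrsf9), OX40 (Tnfrsf4), GITR (Tnfrsf18), TNFR2 (Tnfrsf1b) and CD27 recruit TRAF adaptors to their tails and signal to NF-kB and survival genes; CD27 is present on resting naive cells, 4-1BB and OX40 are classically induced by activation, and OX40, GITR, TNFR2, 4-1BB and ICOS are also abundant on regulatory T cells. TRAF1 is an adaptor that joins TNF receptor complexes, among them that of 4-1BB, and its gene is itself induced by NF-kB.

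Libraries held 71447252 to 93418385 counts, with a median of 78528233, and levels are given as CPM, the counts of a gene scaled to a common library total. No member had fewer than 185 counts in any library, so all 8 passed the filter on low counts. Markers of the sort were as follows. Cd3e lay between 313 and 482 CPM in every library. Cd8a averaged 1600 CPM in CD8 CD5hi and 1980 CPM in CD8 CD5lo cells against 1.39 CPM in CD4 CD5hi and 5.43 CPM in CD4 CD5lo cells. Cd5 averaged 498 CPM in CD8 CD5hi against 200 CPM in CD8 CD5lo cells, and 1390 CPM in CD4 CD5hi against 255 CPM in CD4 CD5lo cells. Gates of the same name thus differed in Cd5 mRNA between lineages. The part of this in the lineage comparisons was not tested. Some libraries stood apart. B cell markers summed to 897 CPM in CD8 CD5hi replicate 4, to 555 CPM in CD8 CD5lo replicate 3 and to 352 CPM in CD4 CD5lo replicate 3, and the first 2 of these also held 62.2 and 27.2 CPM of Cd4, against at most 0.75 and 2.51 CPM in the other libraries of their groups. Foxp3 was the highest of its group in both, at 8.31 and 4.16 CPM. The members' counts are given with and without these 3 B-rich libraries, as are the calls of related genes that were lost without them. In bulk RNA, fewer cells that express a gene and less of its RNA per cell cannot be told apart.

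Markers of other T cell states moved with the CD5 groups. Of 12 tested regulatory T cell markers, 4 were higher and 0 lower in CD8 CD5hi cells (Izumo1r, Gpr83, Ikzf4 and Ikzf2). In CD4 CD5hi cells 6 were higher and 0 lower (the same 4 with Capg and Foxp3). Of all 13554 tested genes, 5.95% were higher and 3.51% lower in CD8 CD5hi cells, and 2.68% and 1.4% in CD4 CD5hi cells. Without the 3 B-rich libraries, 11 of the markers were tested, of which 4 were higher in CD8 CD5hi cells and 9 in CD4 CD5hi cells. With the replicate number as a block, 5 were higher in CD8 CD5hi cells and 1, Itgae, was lower (log2 -0.73, edgeR adjusted p = 0.00894). Foxp3 (0.48, adjusted p = 0.419) and Il2ra (0.58, adjusted p = 0.427) did not pass there. In CD4 CD5hi cells the block gave 7 higher and 0 lower, and Itgae did not pass (-0.84, adjusted p = 0.112). The list's 13 genes summed to 372 to 476 CPM in CD8 CD5hi and 441 to 616 CPM in CD8 CD5lo libraries, and to 376 to 441 CPM in CD4 CD5hi and 110 to 142 CPM in CD4 CD5lo libraries. With the block, Ikzf2 and Itgae were the markers higher in CD8 than in CD4 cells in either gate, and their part in the CD8 sums was not tested. Foxp3, which defines regulatory T cells, was at 14.4 to 22.1 CPM in CD4 CD5hi against 3.98 to 5.96 CPM in CD4 CD5lo libraries. In CD8 cells Foxp3 was at 1.47 to 8.31 CPM in CD5hi and 1.45 to 4.16 CPM in CD5lo libraries. Il10 was at 0 in 11 of the 16 libraries. Of 14 cell cycle genes, 13 were higher in CD8 CD5hi than in CD8 CD5lo cells, summing to 477 to 891 CPM against 346 to 421 CPM. In CD4 cells 0 of the 14 passed edgeR's test (4 at an unadjusted p under 0.05; DESeq2 and limma voom called 0), although 3 were higher without the 3 B-rich libraries and 2 with the replicate number as a block. There they summed to 407 to 473 CPM in CD5hi against 365 to 459 CPM in CD5lo libraries. The 16 activated and memory T cell genes summed to 921 to 1130 CPM in CD8 CD5hi against 686 to 883 CPM in CD8 CD5lo libraries, and to 390 to 420 CPM in CD4 CD5hi against 297 to 460 CPM in CD4 CD5lo libraries. Of 15 tested, 4 were higher and 0 lower in CD8 CD5hi cells, and 3 higher and 1 lower in CD4 CD5hi cells. The block gave 10 higher and 0 lower in CD8 CD5hi cells, Cd44 among the higher (log2 1.28, edgeR adjusted p = 0.00546). In CD4 CD5hi cells it gave 3 higher and 1 lower. The part of these cells and states in the differences below was not tested.

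With more CD5 on the surface, 4-1BB mRNA was higher and Traf1 mRNA lower in both lineages, and OX40, GITR and ICOS mRNAs were higher in CD4 cells. The GITR and ICOS changes had the same sign in CD8 cells (log2 0.28 and 0.34). They fell short of the threshold in the fit without a block. With the replicate number as a block both passed in CD8 cells (edgeR adjusted p = 0.00329 and 0.0104), and Cd27 was lower there (adjusted p = 0.00327). For GITR and ICOS the test of a difference between lineages gave edgeR adjusted p of 0.978 and 0.954 without the block. It gave 0.512 and 0.471 with the block. A gene is said to pass, or to be higher or lower, where its adjusted p was under 0.05 in edgeR's quasi-likelihood test with Benjamini-Hochberg adjustment over all 13554 genes tested. In CD8 cells, 1 of the 8 members was higher and 1 lower in CD5hi, while 5.95% of all tested genes were higher and 3.51% lower (9.46% in all). In CD4 cells, 4 of the 8 were higher and 1 lower, while 2.68% of all tested genes were higher and 1.4% lower (4.08% in all). The members were chosen with earlier results of these data known. Their counts beside the shares of all tested genes are thus a description and not a test. The members' median log2 change was 0.10 in CD8 and 0.34 in CD4 cells, beside 0 and -0.01 over all tested genes. The CD5hi and CD5lo libraries did not overlap for 3 of 8 members in CD8 cells (14.8% of all tested genes) and for 4 of 8 in CD4 cells (9.29%).

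**Figure D1:**
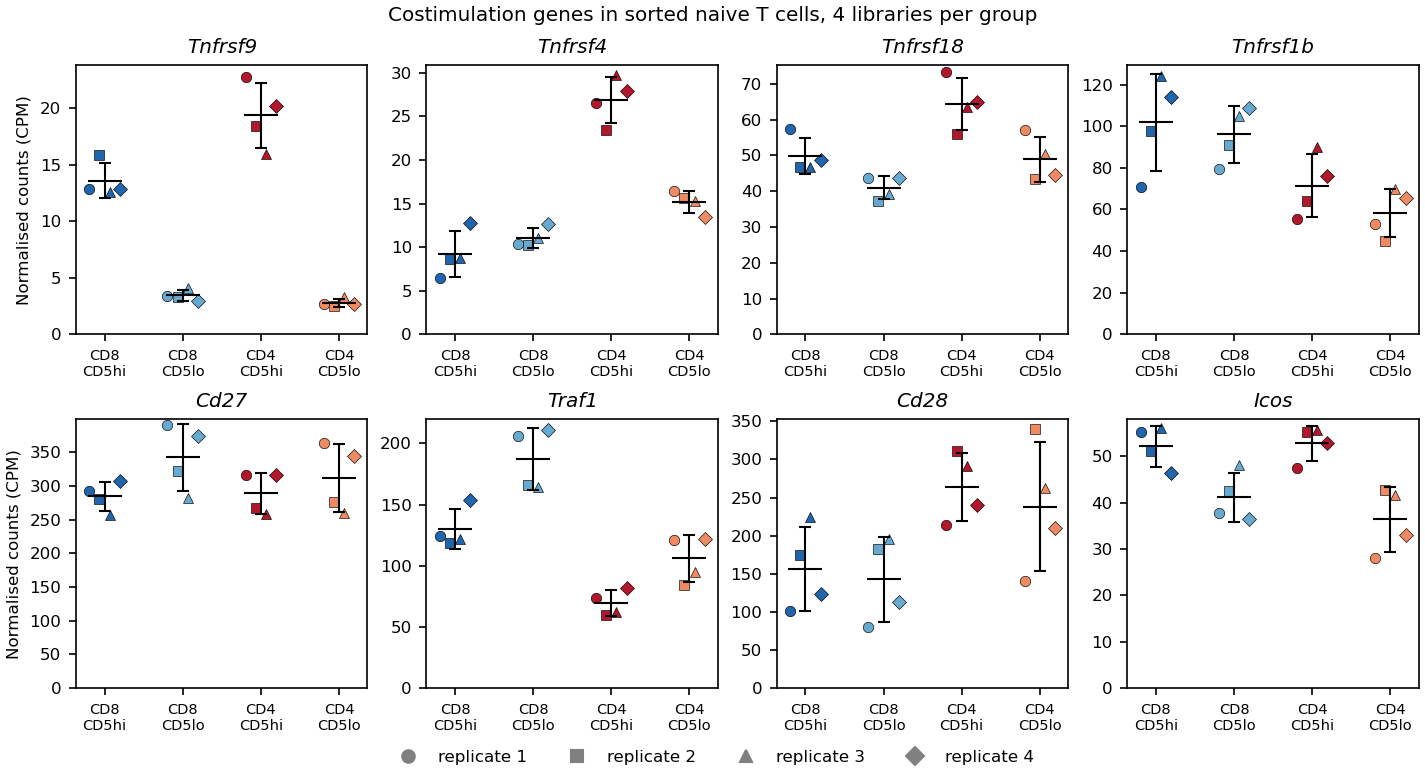
Level of each costimulation gene in each of the 16 libraries, in CPM, by group, with the mean and SD of the 4 replicates of a group. Tnfrsf9 shows the largest ratio of CD5hi to CD5lo cells in both lineages, at 13.6 against 3.45 CPM on average in CD8 cells and 19.4 against 2.79 CPM in CD4 cells.

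The activation-induced receptor gene Tnfrsf9 lies at chr4:150914562-150946102 of mm10 on the plus strand, and no other gene of the count table shares its exons. It was at 12.9, 15.9, 12.6 and 12.9 CPM in CD8 CD5hi replicates 1 to 4, against 3.42, 3.34, 4.08 and 2.95 CPM in CD8 CD5lo replicates 1 to 4. In CD4 CD5hi replicates it was at 22.8, 18.4, 16.0 and 20.2 CPM, against 2.64, 2.51, 3.29 and 2.72 CPM in CD4 CD5lo replicates. Every CD5hi library lay above every CD5lo library of its lineage, and the spread within a group was narrow beside the gap. The mean was 13.6 ± 1.56 CPM in CD8 CD5hi and 3.45 ± 0.469 CPM in CD8 CD5lo cells, a 3.94-fold difference (log2 1.98 ± 0.14 SE; edgeR adjusted p = 5.27e-07), with SD over n = 4 each. In CD4 cells the means were 19.4 ± 2.88 CPM in CD5hi and 2.79 ± 0.345 CPM in CD5lo cells (SD, n = 4 each), a 6.93-fold difference (log2 2.79 ± 0.14; edgeR adjusted p = 3.9e-09). Both calls held in all 25 alternative settings tried for each.

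Between lineages, Tnfrsf9 differed by the test among CD5hi cells, where it was lower in CD8 than in CD4 libraries with no overlap (log2 -0.51 ± 0.13; edgeR adjusted p = 0.00687). Among CD5lo cells the log2 difference of CD8 over CD4 was 0.30 with a 95% interval of 0.01 to 0.60, and the libraries overlapped (edgeR adjusted p = 0.145). The CD5 difference in CD8 minus that in CD4 cells was -0.81 ± 0.19 on the log2 scale, which did not pass the test over all genes (edgeR adjusted p = 0.0912). It passed with the replicate number as a block (adjusted p = 0.0323), a fit in which 0 members were higher and 2 lower, while 1.51% of all tested genes were higher and 1.28% lower.

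Start-site sequences of Tnfrsf9, Tnfrsf4 and Traf1 are shown next, from the RefSeq promoter table (build GRCm38.p6, 250 bases before to 50 after a start). It held 7 windows for 6 of the 8 members, with 2 starts for Tnfrsf9; Cd28 and Icos had no entry. Both strands were searched for the NF-kB consensus and for the AP-1 motif TGANTCA, and capitals mark the matches, which do not overlap each other across motifs. The downstream Tnfrsf9 start (chr4:150927749-150928048, plus strand) was the single member window with either motif.
Tnfrsf9 downstream start: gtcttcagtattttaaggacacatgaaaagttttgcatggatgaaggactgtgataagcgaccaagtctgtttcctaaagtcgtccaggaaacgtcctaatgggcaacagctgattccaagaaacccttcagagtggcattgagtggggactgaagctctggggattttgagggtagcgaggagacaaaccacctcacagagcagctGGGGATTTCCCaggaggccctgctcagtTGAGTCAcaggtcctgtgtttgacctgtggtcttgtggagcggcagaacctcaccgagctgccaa
Its run GGGGATTTCCC, 43 to 33 bases before the start (chr4:150927956-150927966), holds 2 overlapping matches to the NF-kB consensus, and TGAGTCA follows 15 to 9 bases before the start (chr4:150927984-150927990). For scale, 8.46% of the 32851 windows in the table hold the NF-kB consensus and 7.81% hold TGANTCA, so a match is a description of these letters and not evidence of binding. The upstream start of the same gene (chr4:150919905-150920204, plus strand) held neither.
Tnfrsf9 upstream start: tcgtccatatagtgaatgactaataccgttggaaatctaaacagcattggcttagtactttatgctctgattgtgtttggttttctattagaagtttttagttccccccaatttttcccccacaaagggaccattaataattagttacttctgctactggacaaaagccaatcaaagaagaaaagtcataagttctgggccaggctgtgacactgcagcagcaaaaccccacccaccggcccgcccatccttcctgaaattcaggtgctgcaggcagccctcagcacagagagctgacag
The windows of Tnfrsf4 (chr4:156013445-156013744, plus strand) and Traf1 (chr2:34961723-34962022, minus strand) held no match. Traf1 is shown because it was lower in CD5hi cells. Tnfrsf4 is shown because its fitted log2 changes with CD5 had opposite signs, 0.82 in CD4 and -0.27 in CD8 cells. The CD8 change did not pass (edgeR adjusted p = 0.328), and the difference between lineages was close to the threshold (adjusted p = 0.0454).
Tnfrsf4: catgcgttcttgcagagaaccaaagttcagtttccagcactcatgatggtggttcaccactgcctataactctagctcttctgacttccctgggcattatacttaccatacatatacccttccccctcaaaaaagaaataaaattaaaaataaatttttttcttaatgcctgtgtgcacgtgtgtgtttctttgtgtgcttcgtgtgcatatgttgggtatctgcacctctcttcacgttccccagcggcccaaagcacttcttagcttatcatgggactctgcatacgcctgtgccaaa
Traf1: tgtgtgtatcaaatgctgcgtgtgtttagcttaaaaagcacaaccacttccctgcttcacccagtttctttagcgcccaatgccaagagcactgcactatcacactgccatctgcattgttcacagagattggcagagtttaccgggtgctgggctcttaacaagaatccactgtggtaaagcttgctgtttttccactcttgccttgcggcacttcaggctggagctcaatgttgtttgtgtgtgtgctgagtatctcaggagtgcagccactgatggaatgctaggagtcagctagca
The counts are per gene and cannot show which Tnfrsf9 start was used. RefSeq starts and the GENCODE gene positions given here differ. The Tnfrsf4 window ends before the gene position given below, and both Tnfrsf9 windows lie within the gene position given above.

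Tnfrsf4, which encodes OX40, a receptor that sustains survival of activated CD4 cells, lies at chr4:156013843-156016612 on the plus strand. It was at 6.49, 8.58, 8.79 and 12.8 CPM in CD8 CD5hi replicates 1 to 4, against 10.4, 10.2, 11 and 12.7 CPM in CD8 CD5lo replicates. CD4 CD5hi replicates 1 to 4 held 26.5, 23.4, 29.7 and 27.9 CPM, against 16.4, 15.6, 15.3 and 13.5 CPM in CD4 CD5lo replicates. All CD4 CD5hi libraries were above all CD4 CD5lo libraries, whereas in CD8 cells 3 CD5hi libraries lay below every CD5lo library and replicate 4 lay above them all. The gene was 1.77-fold higher in CD4 CD5hi cells, 26.9 ± 2.66 against 15.2 ± 1.24 CPM (SD, n = 4 each; log2 0.82 ± 0.15, edgeR adjusted p = 0.00435), a call kept in all 25 alternatives. In CD8 cells the means were 9.17 ± 2.64 CPM in CD5hi and 11.1 ± 1.15 CPM in CD5lo cells, a log2 difference of -0.27 that did not pass (95% interval -0.61 to 0.07; edgeR adjusted p = 0.328). Without CD8 CD5hi replicate 4, the library with 62.2 CPM of Cd4, 897 CPM of B cell markers and 8.31 CPM of Foxp3, Tnfrsf4 was lower in CD8 CD5hi cells (log2 -0.48; edgeR adjusted p = 0.0202), and without the 3 B-rich libraries it was lower as well (log2 -0.47; adjusted p = 0.0499).

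Tnfrsf4 was the one member whose CD5 difference differed between lineages by the test of that difference, with 0.31% of all tested genes called, 0.177% higher and 0.133% lower. The log2 change in CD8 minus that in CD4 cells was -1.10 ± 0.22 (edgeR adjusted p = 0.0454). The gap in Cd5 mRNA between gates was also wider in CD4 cells (1390 against 255 CPM) than in CD8 cells (498 against 200 CPM). Its part in this result was not tested. The Tnfrsf4 call was close to the threshold. It was kept without CD8 CD5hi replicate 1 or replicate 4 and lost without any 1 of the other 14 libraries. Adjusted p was then 0.0653 to 0.108, although every such log2 value was below 0. It passed with the replicate number as a block (-1.10, edgeR adjusted p = 0.00743) and without the 3 B-rich libraries (-1.29, adjusted p = 0.00895). DESeq2 (adjusted p = 0.000617) and limma voom (adjusted p = 0.0286) called it too. In all it passed in 8 of 24 alternatives. Tnfrsf4 was also the member with the widest gap between lineages among CD5hi cells, where CD8 cells held 0.341 of the CD4 level (log2 -1.55 ± 0.16; edgeR adjusted p = 1.58e-06). Among CD5lo cells it was lower in CD8 cells too, with no overlap, at 0.729 of the CD4 level (log2 -0.46 ± 0.15; edgeR adjusted p = 0.0497). That second call was kept without CD8 CD5lo replicate 4, CD8 CD5hi replicate 1 or CD8 CD5hi replicate 4. It was lost without any 1 of the other 13 libraries (adjusted p 0.0508 to 0.133). It passed with the block (-0.47, edgeR adjusted p = 0.0171) and in 8 of 25 alternatives in all.

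Tnfrsf18, which encodes GITR, the neighbour of Tnfrsf4 at chr4:156026164-156028895 on the same strand and 9551 bases away, was higher in CD4 CD5hi cells by a modest margin. It was at 57.3, 46.7, 46.7 and 48.6 CPM in CD8 CD5hi replicates 1 to 4, against 43.7, 37.3, 39.3 and 43.8 CPM in CD8 CD5lo replicates. The CD4 CD5hi replicates had 73.4, 55.9, 63.5 and 64.9 CPM, against 57.2, 43.3, 50.5 and 44.6 CPM in CD4 CD5lo replicates. The CD8 libraries did not overlap, and in CD4 cells CD5lo replicate 1 lay above CD5hi replicate 2. In CD4 cells the gene was 1.32-fold higher in CD5hi (log2 0.40 ± 0.11; edgeR adjusted p = 0.0439). This call was kept without CD4 CD5lo replicate 1, CD4 CD5hi replicate 2 or CD8 CD5hi replicate 1. It was lost without any 1 of the other 13 libraries (adjusted p 0.0519 to 0.147) and without the 3 B-rich libraries (log2 0.41, edgeR adjusted p = 0.102). It passed with the replicate number as a block (0.40, edgeR adjusted p = 0.00036) and in 9 of 25 alternatives in all. In CD8 cells the log2 change of 0.28 ± 0.11 missed the threshold (edgeR adjusted p = 0.115) and passed with the replicate number as a block (adjusted p = 0.00329); CD5hi exceeded CD5lo in 4 of 4 replicate numbers in each lineage. Among CD5hi cells Tnfrsf18 was lower in CD8 than in CD4 cells (log2 -0.37 ± 0.11, edgeR adjusted p = 0.0136). The call was lost without CD8 CD5hi replicate 3 (adjusted p = 0.0541) and without the 3 B-rich libraries (log2 -0.34, adjusted p = 0.0551). It was kept in 23 of 25 alternatives, among them the block (-0.37, edgeR adjusted p = 0.000123). Among CD5lo cells the difference of -0.25 did not pass (edgeR adjusted p = 0.115) but did with the block (-0.25; adjusted p = 0.00413).

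Tnfrsf1b, which encodes TNFR2, the receptor through which membrane-bound TNF costimulates T cells, lies at chr4:145213463-145246870 on the minus strand. It differed between lineages by the test and not with CD5. It was at 71.0, 97.5, 124 and 114 CPM in CD8 CD5hi replicates 1 to 4, against 79.3, 91.2, 105 and 109 CPM in CD8 CD5lo replicates. In CD4 CD5hi replicates it was at 55.2, 64.3, 90.0 and 75.9 CPM, against 53.2, 44.9, 69.8 and 65.4 CPM in CD4 CD5lo replicates. CD5hi and CD5lo libraries overlapped in both lineages, while all CD8 CD5lo libraries lay above all CD4 CD5lo libraries. The log2 change with CD5 was 0.08 in CD8 cells (95% interval -0.32 to 0.49; edgeR adjusted p = 0.848) and 0.29 in CD4 cells (-0.11 to 0.70; adjusted p = 0.635). With the replicate number as a block the CD4 change was 0.28 (edgeR adjusted p = 0.0505), and CD5hi exceeded CD5lo in 4 of 4 replicate numbers in CD4 and 3 of 4 in CD8 cells. Among CD5lo cells it was 1.65-fold higher in CD8 than in CD4 cells (log2 0.72 ± 0.19; edgeR adjusted p = 0.0107), a call kept in all 25 alternatives. Among CD5hi cells it was 1.43-fold higher (log2 0.51 ± 0.19; edgeR adjusted p = 0.0471). The CD5hi call was lost without any 1 of 9 libraries (adjusted p 0.0516 to 0.129): CD8 CD5hi replicates 2, 3 and 4, CD8 CD5lo replicates 2 and 3, CD4 CD5hi replicates 1, 2 and 4, and CD4 CD5lo replicate 4. It was also lost without the 3 B-rich libraries (log2 0.47, edgeR adjusted p = 0.0909). It passed with the replicate number as a block (0.51, edgeR adjusted p = 0.000203) and in 14 of 25 alternatives in all.

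Cd27, at chr6:125232622-125237010 on the minus strand, encodes the receptor for CD70 that resting naive cells already carry. It was at 293, 281, 257 and 308 CPM in CD8 CD5hi replicates 1 to 4, against 391, 323, 282 and 375 CPM in CD8 CD5lo replicates. Among CD4 cells it was at 316, 268, 258 and 316 CPM in CD5hi replicates, against 364, 277, 260 and 345 CPM in CD5lo replicates. The groups overlapped in both lineages, but within each replicate number CD5hi was below CD5lo in 4 of 4 pairs in CD8 and in 4 of 4 pairs in CD4 cells. The log2 change was -0.27 ± 0.12 in CD8 cells (edgeR adjusted p = 0.202), which passed with the replicate number as a block (-0.26; adjusted p = 0.00327), and -0.11 ± 0.12 in CD4 cells (95% interval -0.37 to 0.16; adjusted p = 0.901). Between lineages the log2 difference of CD8 over CD4 was -0.02 among CD5hi cells (95% interval -0.29 to 0.24; edgeR adjusted p = 0.915) and 0.14 among CD5lo cells (-0.13 to 0.40; adjusted p = 0.527). The short microRNA gene Mir8113 covers 129 bases, 5.54%, of the exons of Cd27, and reads there cannot be told apart.

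Traf1, at chr2:34941750-34961772 on the minus strand, was the one member that was lower in CD5hi cells of both lineages. It was at 124, 119, 122 and 154 CPM in CD8 CD5hi replicates 1 to 4, against 206, 166, 164 and 211 CPM in CD8 CD5lo replicates. In CD4 CD5hi replicates it was at 73.8, 59.5, 62.6 and 82.0 CPM, against 121, 84.2, 94.7 and 122 CPM in CD4 CD5lo replicates. Each CD5hi library lay below each CD5lo library of its lineage. CD5hi cells held 0.694 of the CD5lo level in CD8 cells (130 ± 16.4 against 187 ± 25.2 CPM, SD, n = 4 each; log2 -0.53 ± 0.14, edgeR adjusted p = 0.0245). In CD4 cells they held 0.658 of it (69.4 ± 10.4 against 106 ± 19.1 CPM, SD, n = 4 each; log2 -0.60 ± 0.14, edgeR adjusted p = 0.0197). In the fit without a block, single libraries decided whether these calls passed. Leaving out CD8 CD5hi replicate 1, 2 or 3 ended the CD8 call (adjusted p of 0.0641, 0.0844 and 0.0751), as did leaving out CD8 CD5lo replicate 1 or 4 (0.085 and 0.0973). The CD4 call ended without CD4 CD5hi replicate 2 or 3 (0.0766 and 0.0717) and without CD4 CD5lo replicate 1 or 4 (0.0744 and 0.0716). Both calls passed with the replicate number as a block. The log2 change was then -0.52 in CD8 (edgeR adjusted p = 3.62e-05) and -0.60 in CD4 cells (adjusted p = 1.17e-05). CD5hi exceeded CD5lo in 0 of 4 replicate numbers in each lineage.

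Traf1 also held the widest gap in favour of CD8 cells, and there its calls were kept in all 25 alternatives. It was 1.87-fold higher in CD8 than in CD4 cells among CD5hi cells (log2 0.90 ± 0.14; edgeR adjusted p = 0.000131) and 1.77-fold higher among CD5lo cells (log2 0.82 ± 0.14; adjusted p = 0.000391), with no overlap of libraries in either. The log2 change with CD5 in CD8 minus that in CD4 cells was 0.08, with a 95% interval of -0.35 to 0.50 (edgeR adjusted p = 1). In CD4 CD5hi cells, which held the most Tnfrsf9 and Tnfrsf4, Traf1 had its lowest mean of the 4 groups, and in CD8 CD5lo cells its highest.

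Cd28, at chr1:60716800-60773359 on the plus strand, encodes the main costimulatory receptor of naive T cells and varied widely between replicates. It was at 101, 175, 224 and 123 CPM in CD8 CD5hi replicates 1 to 4, against 80.0, 183, 196 and 113 CPM in CD8 CD5lo replicates. CD4 CD5hi replicates 1 to 4 held 214, 311, 291 and 240 CPM, against 141, 340, 263 and 210 CPM in CD4 CD5lo replicates. Replicate 1 was the lowest library in all 4 groups, and CD5hi and CD5lo overlapped widely. The log2 change with CD5 was 0.12 in CD8 cells (95% interval -0.54 to 0.79, edgeR adjusted p = 0.864) and 0.15 in CD4 cells (-0.52 to 0.81, adjusted p = 0.978). In this fit without a block, the intervals leave room for changes larger in size than that of Traf1. The block narrowed them, with a change of 0.15 ± 0.12 SE in CD8 (edgeR adjusted p = 0.411) and 0.21 ± 0.12 in CD4 cells (adjusted p = 0.37). CD8 cells held less Cd28 than CD4 cells under every replicate number, but the differences did not pass among CD5hi cells (log2 -0.76 ± 0.31; edgeR adjusted p = 0.0729) or CD5lo cells (log2 -0.74 ± 0.31; adjusted p = 0.114). With the replicate number as a block both passed (-0.82 with adjusted p = 8.34e-05, and -0.76 with adjusted p = 0.000229). Leaving out CD8 CD5hi replicate 3 alone brought the CD5hi difference past the threshold (adjusted p = 0.0347), as leaving out CD4 CD5lo replicate 1 did for the CD5lo difference (adjusted p = 0.0489).

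Icos, at chr1:60977927-61000320 on the plus strand and 204567 bases from Cd28, encodes the inducible receptor for ICOS ligand. It was at 55.3, 51.1, 56.1 and 46.5 CPM in CD8 CD5hi replicates 1 to 4, against 37.8, 42.5, 48.1 and 36.4 CPM in CD8 CD5lo replicates. The CD4 CD5hi replicates had 47.5, 55.3, 55.6 and 52.8 CPM, against 28.0, 42.8, 41.7 and 33.0 CPM in CD4 CD5lo replicates. The CD4 groups did not overlap; in CD8 cells CD5lo replicate 3 lay above CD5hi replicate 4. The gene was 1.45-fold higher in CD4 CD5hi cells, 52.8 ± 3.73 against 36.4 ± 7.09 CPM (SD, n = 4 each; log2 0.54 ± 0.13, edgeR adjusted p = 0.0218). Leaving out CD4 CD5hi replicate 2, 3 or 4 ended that call (adjusted p of 0.0637, 0.065 and 0.0563), as did leaving out CD4 CD5lo replicate 1 or 4 (0.0583 and 0.0838) or fitting only the 8 CD4 libraries (0.063). It was kept in 19 of 25 alternatives, among them the replicate number as a block (0.55, edgeR adjusted p = 0.00084). In CD8 cells the log2 change of 0.34 ± 0.13 did not pass (edgeR adjusted p = 0.106), but did with the replicate number as a block (0.35; adjusted p = 0.0104), without CD4 CD5lo replicate 1 (adjusted p = 0.0464) and without the 3 B-rich libraries (0.49; adjusted p = 0.0268). CD5hi exceeded CD5lo in 4 of 4 replicate numbers in each lineage. No lineage difference passed: the log2 difference of CD8 over CD4 was -0.02 among CD5hi cells (95% interval -0.29 to 0.26; edgeR adjusted p = 0.945) and 0.18 among CD5lo cells (-0.10 to 0.45; adjusted p = 0.401).

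**Figure D2:**
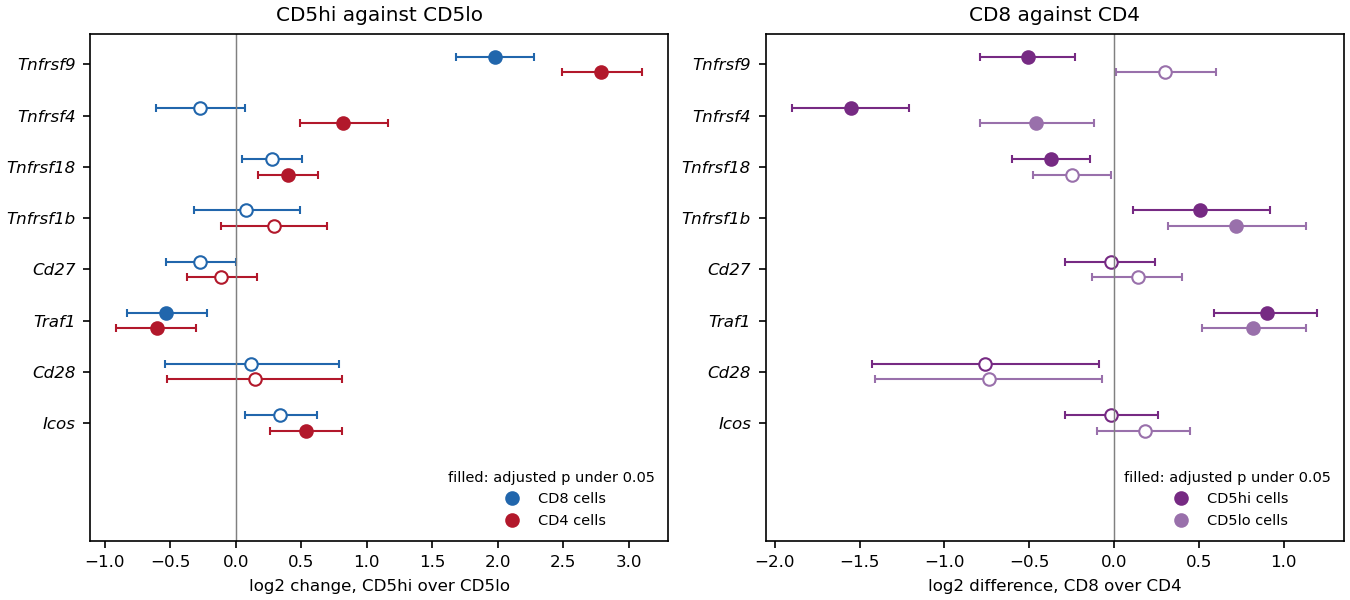
Log2 change with its 95% interval for each gene: CD5hi over CD5lo in CD8 and CD4 cells (left), and CD8 over CD4 in CD5hi and CD5lo cells (right); filled points have an adjusted p under 0.05. Tnfrsf4 lies on opposite sides of 0 in the left panel, at -0.27 in CD8 and 0.82 in CD4 cells, while Traf1 is below 0 there in both lineages and above 0 on the right.

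With the replicate number as a block, which takes out shifts common to the libraries of a number, the members called in CD8 cells came to 3 higher and 2 lower in CD5hi, while the shares of all tested genes called grew to 13.4% higher and 11.6% lower. In CD4 cells the block left the count at 4 higher and 1 lower, with 5.69% and 3.99% of all genes called. Without the 3 B-rich libraries, 2 members were higher and 2 lower in CD8 CD5hi cells (7.01% and 4.04% of all tested genes), and 3 higher and 1 lower in CD4 CD5hi cells (2.7% and 1.23%). For the difference between lineages, 0 were then higher and 1 lower (0.626% and 0.324%). The fitted CD5 difference had the same sign in both lineages for 7 of the 8 members, all but Tnfrsf4, though for 5 of these the change did not pass in at least one lineage. Apart from Tnfrsf4 and Tnfrsf9, the test of the difference between lineages gave an edgeR adjusted p of 0.954 or more for each member.

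Between lineages, CD8 cells held more Traf1 and Tnfrsf1b, and less Tnfrsf4, than CD4 cells in either CD5 gate. The gates were not matched for Cd5 mRNA, at 498 CPM in CD8 CD5hi and 1390 CPM in CD4 CD5hi cells. Among CD5hi cells 2 of 8 members were higher in CD8 (15.6% of all tested genes) and 3 lower (14.8%), with 30.3% called in all. Among CD5lo cells 2 were higher (10%) and 1 lower (9.44%), with 19.5% called in all. The libraries did not overlap for 3 members among CD5hi cells (28.9% of all tested genes) and for 3 among CD5lo cells (22.3%). Without the 3 B-rich libraries, 1 member was higher and 2 lower among CD5hi cells (16.4% and 13.9%), and 2 higher and 1 lower among CD5lo cells (8.32% and 7.04%). With the block, 2 were higher and 4 lower among CD5hi cells (23.4% and 23.3%), and 2 higher and 3 lower among CD5lo cells (15.7% and 16.3%). The 5 comparisons share libraries, so their counts are not independent of each other.

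Set per kilobase of exon, Cd27 had the highest level of the members in every group and Tnfrsf9 the lowest. The length counts all annotated exons of a gene, whether used in these cells or not, from 1365 bases for Tnfrsf4 to 8819 for Traf1. The order between genes is therefore approximate. Cd27 averaged 122 CPM per kb in CD8 CD5hi, 147 in CD8 CD5lo, 124 in CD4 CD5hi and 134 in CD4 CD5lo cells, and no other member's libraries reached it. Tnfrsf9 averaged 4.99 and 1.27 CPM per kb in CD8 CD5hi and CD5lo cells, and 7.11 and 1.03 CPM per kb in CD4 CD5hi and CD5lo cells. In between the order changed with lineage. In CD4 CD5hi cells Cd28 (43.1 CPM per kb) and Tnfrsf18 (42.3) came next and overlapped each other, followed by Tnfrsf4 (19.7), Tnfrsf1b (18.7) and Icos (15.4), of which each overlapped the next, and by Traf1 (7.87), which overlapped Tnfrsf9. CD4 CD5lo cells had the same leading trio, with 39.0 CPM per kb of Cd28 and 32.1 of Tnfrsf18; there Tnfrsf1b (15.3), Traf1 (12), Tnfrsf4 (11.1) and Icos (10.6) overlapped in sequence. In CD8 CD5hi cells Tnfrsf18 (32.7), Tnfrsf1b (26.7) and Cd28 (25.4) overlapped in sequence, Icos (15.2) overlapped Traf1 (14.7), and Tnfrsf4 (6.72) overlapped Tnfrsf9. In CD8 CD5lo cells Tnfrsf18 (26.9), Tnfrsf1b (25.2), Cd28 (23.3) and Traf1 (21.2) overlapped in sequence, and Icos (12), Tnfrsf4 (8.11) and Tnfrsf9 were each clear of the next. OX40 mRNA took rank 4 of 8 in CD4 CD5hi cells and rank 7 in both CD8 groups.

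**Figure D3:**
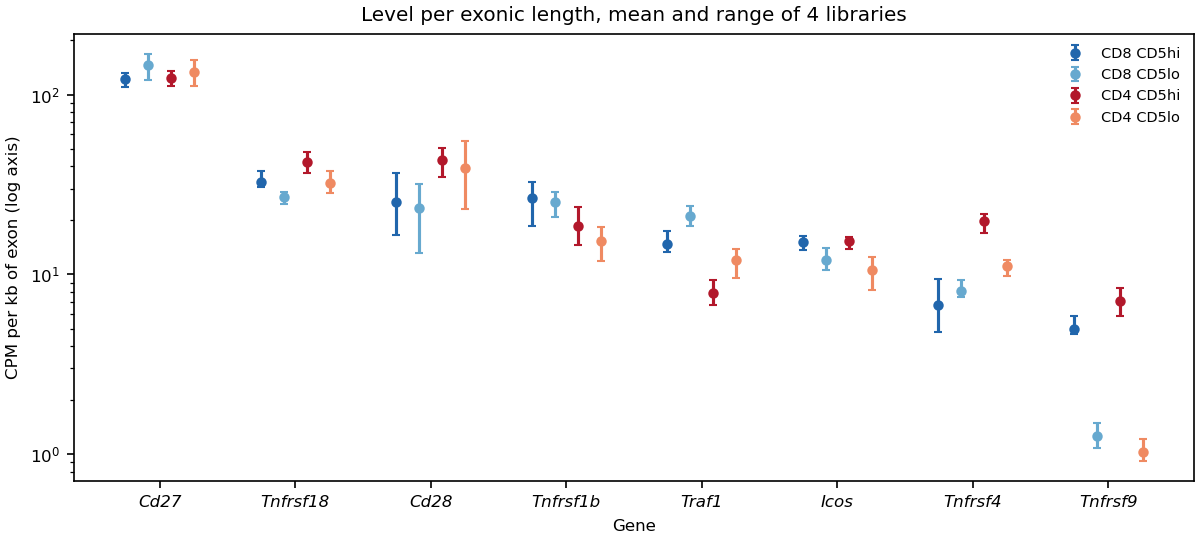
Level of the 8 genes per kilobase of exon in each group (CPM per kb, log axis; points are means of 4 libraries and bars run from the lowest to the highest library). Cd27 is highest in all 4 groups, at 122 to 147 CPM per kb on average, and Tnfrsf9 lowest, with its CD5lo levels near 1.

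Replicates of a group varied together in a way that split the members. After each group's mean was taken off, the log2 levels of Cd27 and Traf1 varied together across the 16 libraries (Pearson r = 0.87), as did those of Cd28 and Icos (0.76). Between these pairs the values ran opposite, with r of -0.85 for Cd27 and Cd28, -0.90 for Cd27 and Icos, -0.75 for Traf1 and Cd28 and -0.83 for Traf1 and Icos. Tnfrsf18 sided with Cd27 (0.52) and opposed Cd28 (-0.78). Tnfrsf9 had no such partner, with r between -0.17 and 0.15 against each other member. The pattern followed the replicate number: Cd28 was lowest in replicate 1, Cd27 lowest in replicate 3 and Traf1 highest in replicate 4 in all 4 groups. These are descriptions over 16 libraries that share replicate numbers and sequencing, and their source was not tested.

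**Figure D4:**
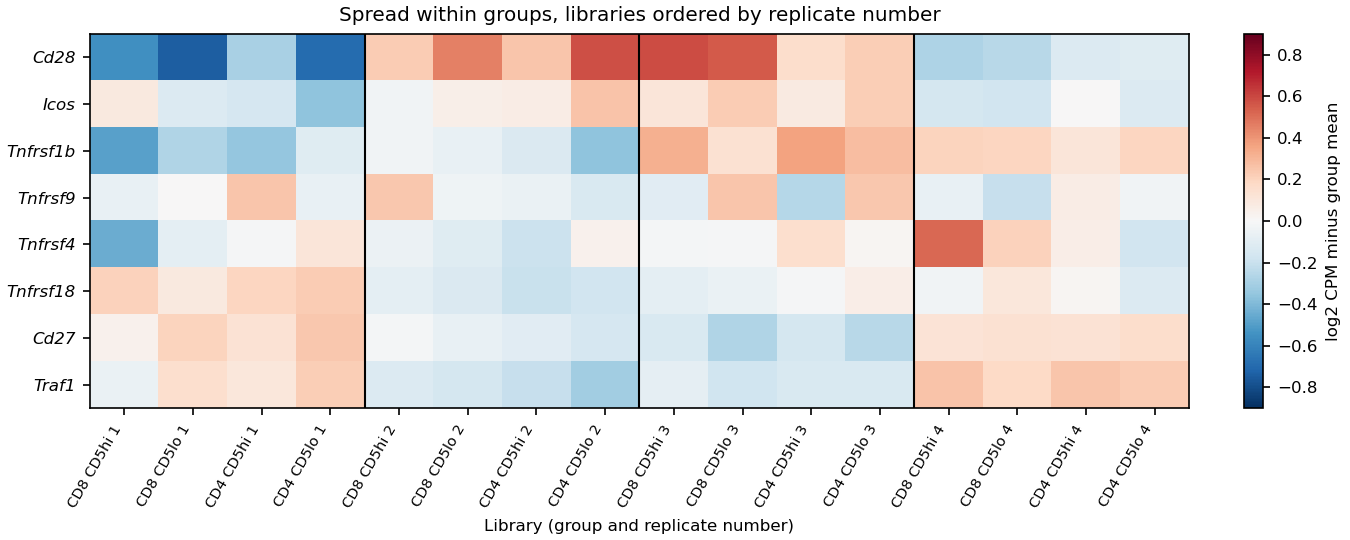
Log2 level of each gene in each library after its group's mean was taken off, as colour (red above and blue below the mean), with libraries ordered by replicate number. Cd28 lies lowest in replicate 1 and Cd27 lowest in replicate 3 of all 4 groups, while Tnfrsf9 shows no common order.

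Other receptors of the TNF family included 1 that was higher with CD5 in both lineages. Of 16 tested, 2 were higher and 1 lower in CD8 CD5hi cells, where 9.46% of all tested genes were called. In CD4 CD5hi cells 1 was higher and 0 lower, where 4.08% were called, and the median log2 changes were 0 in CD8 and 0.04 in CD4 cells. With the replicate number as a block, 2 were higher and 4 lower in CD8 (13.4% and 11.6% of all tested genes) and 1 higher and 3 lower in CD4 cells (5.69% and 3.99%). Tnfrsf25, the death receptor 3 gene that costimulates T cells through TL1A, was higher in both, at 40.5 against 27.9 CPM in CD8 CD5hi and CD5lo cells (log2 0.54; edgeR adjusted p = 0.00238) and 123 against 93.1 CPM in CD4 CD5hi and CD5lo cells (log2 0.40; adjusted p = 0.0244). Tnfrsf1a, the gene of the death-domain TNF receptor and counterpart of Tnfrsf1b, was lower in CD8 CD5hi cells, at 42.6 against 57.2 CPM (log2 -0.43; edgeR adjusted p = 0.00516). Tnfrsf21, death receptor 6, was higher there from a low level, 1.43 against 0.497 CPM (log2 1.53; adjusted p = 0.0177). Without the 3 B-rich libraries, 0 of these receptors passed edgeR's test in CD4 cells, Tnfrsf25 having a log2 change of 0.38 (adjusted p = 0.0935).

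The partners of the receptors were mixed. Of 7 tested ligand genes, 0 were higher and 1 lower in CD8 CD5hi cells (5.95% and 3.51% of all tested genes). In CD4 CD5hi cells 1 was higher and 0 lower (2.68% and 1.4%). The median log2 changes were 0.39 in CD8 and 0.25 in CD4 cells. The block gave 2 higher and 2 lower in CD8 (13.4% and 11.6% of all tested genes) and 2 higher and 0 lower in CD4 cells (5.69% and 3.99%). Without the 3 B-rich libraries, the ICOS ligand gene Icosl was higher in CD8 CD5hi cells (log2 0.85; edgeR adjusted p = 0.00836) and Lta, the lymphotoxin alpha gene, lower (log2 -0.51; adjusted p = 0.00809). Tnf, a ligand of TNFR2, was lower in CD8 CD5hi cells, at 21.6 against 36.4 CPM (log2 -0.76; edgeR adjusted p = 0.00733). Cd86, a ligand of CD28 that T cells can also make, was higher in CD4 CD5hi cells, at 12.2 against 5.17 CPM (log2 1.24; edgeR adjusted p = 0.000282). Of 3 other CD28 family receptors, Pdcd1, the inhibitory PD-1, was higher in CD5hi cells of both lineages (log2 1.77 in CD8 with edgeR adjusted p = 0.000141, and 1.98 in CD4 with adjusted p = 3.5e-05). Ctla4, the inhibitory competitor of CD28 for the same ligands, had log2 changes of 0.02 in CD8 (adjusted p = 0.991) and 0.19 in CD4 cells (adjusted p = 0.988).

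Downstream of the receptors, signalling genes were called in both directions with CD5. Of 32 tested TRAF and TNF receptor signalling genes, 1 was higher and 2 lower in CD8 CD5hi cells and 0 higher and 1 lower in CD4 CD5hi cells, beside 9.46% and 4.08% of all tested genes, with median log2 changes of -0.08 and -0.02. Traf5, an adaptor of CD27 and OX40, was lower with CD5 in both lineages (log2 -0.29 in CD8 with edgeR adjusted p = 0.00697, and -0.26 in CD4 with adjusted p = 0.0239). Its CD4 call was lost without the 3 B-rich libraries (log2 -0.25; adjusted p = 0.0519). In CD8 cells Tnip2, which encodes a binding partner of the NF-kB inhibitor A20, was higher (log2 0.56; adjusted p = 0.000655) and Tab1, a subunit of the TAK1 kinase complex, lower (log2 -0.25; adjusted p = 0.0171). With the replicate number as a block, the counts were 2 higher and 8 lower in CD8 and 3 higher and 2 lower in CD4 cells. Of all tested genes, the block called 13.4% higher and 11.6% lower in CD8, and 5.69% and 3.99% in CD4 cells.

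Of 28 tested CD28 and ICOS signalling genes, 1 was higher and 3 lower in CD8 CD5hi cells and 1 higher and 1 lower in CD4 CD5hi cells. Of all tested genes, 5.95% were higher and 3.51% lower in CD8, and 2.68% and 1.4% in CD4 CD5hi cells. Malt1, the protease of the CARMA1 complex that carries the CD28 signal to NF-kB, was higher in both (log2 0.35 in CD8 with edgeR adjusted p = 0.0133, and 0.34 in CD4 with adjusted p = 0.0254). Grap2, the adaptor GADS that binds the CD28 tail and SLP-76, was lower in both (log2 -0.54 in CD8 with edgeR adjusted p = 0.00136, and -0.58 in CD4 with adjusted p = 0.000874). Pik3cb, a catalytic subunit gene of phosphoinositide 3-kinase, was lower in CD8 CD5hi cells (log2 -0.36; edgeR adjusted p = 0.0296), a call lost without the 3 B-rich libraries (log2 -0.37; adjusted p = 0.0684). The block changed the counts to 1 higher and 9 lower in CD8 and 1 higher and 2 lower in CD4 cells. It called 13.4% of all tested genes higher and 11.6% lower in CD8, and 5.69% and 3.99% in CD4 cells. The CD5 difference differed between lineages for 0 genes of these 5 related lists in edgeR's test without a block. Of the 7 ligand genes 3 had an unadjusted p under 0.05 there and DESeq2 called 2, and in each of the other 4 lists 0 to 2 genes had one and DESeq2 called 0; limma voom called 0 in all 5. With the block it was lower in CD8 than in CD4 cells for Cd86 (log2 -0.85; adjusted p = 0.000266), Lta (log2 -0.62; adjusted p = 0.015) and Fas, a death receptor gene (log2 -0.38; adjusted p = 0.0391). Without the 3 B-rich libraries it was lower for Lta (log2 -0.73; adjusted p = 0.0345).

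Over the 16 libraries, the genes whose log2 CPM followed each member most closely were named by Pearson r, as a description only, since the libraries share groups and replicate numbers. Tnfrsf9 ran with Adora2a (0.977), Chn2 (0.971) and Ephx1 (0.968), and Tnfrsf4 with Tcf25 (0.970), Rasal1 (0.947) and Dcaf11 (0.945). Tnfrsf18 ran with Cd2 (0.969), Fyn (0.933) and Adamtsl4 (0.929), and Tnfrsf1b with Runx3 (0.963), Ahdc1 (0.953) and Abca2 (0.945). Cd27 ran with Athl1 (0.942), Tbc1d10c (0.930) and Degs2 (0.911), and Traf1 with Tagln2 (0.964), Hid1 (0.963) and Tapbpl (0.962). Cd28 ran with Aff4 (0.928), Rasgrp1 (0.923) and Ddx19b (0.923), and Icos with Rnf11 (0.921) and Endod1 (0.899).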

How the data were processed

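Values are the deposited gene counts, 1 table of whole numbers per gene and sample that the authors left without normalisation as far as the values show. Per the labels' protocols, RNA was taken with TRIzol and RNeasy columns, and libraries were made with either of 2 TruSeq kits, one of them stranded; which sample had which kit, and whether counting used strand, were details not given in the sources used here. The build was mm10, and the tools featureCounts 1.4.6-p3, STAR 2.5.2a and DESeq2 are named, per the submitters' processing notes. The design text names technical replicates, which the table does not show separately, and 0 of its columns were left unmatched. The 8 members, the related and marker lists, the tests and the alternatives were chosen with earlier results of these data known.

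Counts were normalised by TMM and tested with edgeR 4.0.16 (R 4.3.3) quasi-likelihood F tests, all 16 libraries and 1 term per group in the fit (12 residual degrees of freedom), after edgeR's default filter (13554 genes). Levels are CPM from TMM-scaled totals; levels per kb divide by the exonic length in GENCODE. All 8 members are named; from related lists, up to 4 genes per CD5 comparison with the smallest adjusted p under 0.05; and the 3 genes of at least 5 CPM with the highest correlation with each member; 2 genes that these rules name are not reported here, and Icosl, Lta and Fas were named after their values were seen. Alternatives were DESeq2 1.42.0, limma 3.58.1 (voom), RLE scaling, other filters, 8-library fits, halved counts (73.9 to 80.5% of counts from 1 to 9 were even numbers), left-out libraries and the replicate number as a block. Same-numbered libraries deviated together from their group means (r of 0.40 to 0.79 between CD8 CD5hi and CD5lo, 0.48 to 0.84 between CD4 CD5hi and CD5lo), and the numbers come from the sample titles. No 2 libraries of a group agreed within sampling noise (chi-square per degree of freedom 30.1 to 215). The fit was tested on simulated data.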

Additional observations from a re-analysis of the deposited data

Results flagged for a closer look

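Of 32 sets of 4 replicates (8 genes in 4 groups), 2 had 1 library far from the other 3 by Dixon's criterion, both in CD8 CD5hi cells; chance meets it in about 1 of 20 sets. Tnfrsf9 was at 15.9 CPM in CD8 CD5hi replicate 2, against 12.6 to 12.9 CPM in the other 3 replicates. Traf1 was at 154 CPM in CD8 CD5hi replicate 4, against 119 to 124 CPM in the other 3; this library also held 897 CPM of B cell markers, whose part was not tested, and it remained below all CD8 CD5lo libraries.

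The CD5 difference of Tnfrsf4 differed between lineages by a test of that difference: the log2 change in CD8 minus that in CD4 cells was -1.10 (edgeR adjusted p = 0.0454).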

How the results depend on the processing

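Over 40 log2 changes of members and their 992 alternative values, 878 kept direction and side of the threshold, 77 lost the call, 15 gained it and 22 changed sign, none of them of a called change. Of 16 called changes, 8 were kept without each library in turn. Alternatives run and not named below left each member count within 1.5 times.

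Counts of members called moved as follows, the cause not tested. In CD8 cells, 1 higher in CD5hi became 3 with the replicate block and 2 without the 3 B-rich libraries, and 1 lower became 2 in each of these. In CD4 cells, 4 higher became 2 with only the 8 libraries compared. For the difference between lineages, 1 lower became 0 with RLE scaling, 0 with no filter, and 2 with DESeq2 (Tnfrsf9, -0.80, adjusted p = 0.00751, joined) and with the replicate block (Tnfrsf9, -0.81, adjusted p = 0.0323). The replicate numbers paired 23 of 24 library pairs over all groups; the exception was replicate 2 of CD8 CD5hi and CD4 CD5lo (r = -0.08). Among CD5hi cells, 2 higher in CD8 became 1 with only 8 libraries and without the 3 B-rich libraries; among CD5lo cells, 1 lower became 0 with RLE, no filter, the stricter filter and halved counts, and 3 with the replicate block. Leaving out single libraries gave 1 to 2 higher and 0 to 2 lower with CD5 in CD8 cells, 2 to 4 higher and 0 to 1 lower in CD4 cells, 0 to 1 lower for the difference between lineages, 1 to 2 higher in CD8 among CD5hi cells and 0 to 1 lower among CD5lo cells.

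Sign changes, all in uncalled values near 0, came without the 3 B-rich libraries (difference between lineages of Traf1 -0.01 and of Cd28 0.23; Icos in CD8 over CD4 among CD5hi cells 0.05) and without single libraries. Left-out single libraries gave ranges, with CD5 in CD8 cells, of -0.09 to 0.31 for Cd28 and -0.02 to 0.23 for Tnfrsf1b, and in CD4 cells of -0.04 to 0.37 for Cd28. The ranges were -0.24 to 0.18 for Cd28 and -0.02 to 0.17 for Traf1 in the difference between lineages, and -0.06 to 0.04 for Cd27 and for Icos in CD8 over CD4 among CD5hi cells.

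Over all tested genes, the block called 1813 higher and 1577 lower with CD5 in CD8 cells (806 and 476 without it), 771 and 541 in CD4 cells (363 and 190), 205 and 174 for the difference between lineages (24 and 18), 3177 and 3159 for CD8 over CD4 among CD5hi cells (2108 and 2003), and 2132 and 2213 among CD5lo cells (1359 and 1279). DESeq2 called 307 lower in CD4 cells and 128 and 87 for the difference between lineages; fits of 8 libraries called 248 lower in CD8 cells; for the difference between lineages the stricter filter called 36 higher and omitting the 3 B-rich libraries gave 85 and 44. Left-out single libraries gave 512 to 950 higher and 228 to 697 lower with CD5 in CD8 cells, 259 to 408 and 123 to 227 in CD4 cells, and 1 to 107 and 7 to 58 for the difference between lineages. The lowest count of a member was 185, and halving all counts ended 1 member call, that of Tnfrsf4 in CD8 over CD4 among CD5lo cells (adjusted p = 0.051). In the fit without a block, standard errors were the highest for Cd28.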
